A study of Mus musculus with 5 samples.

Results

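The genes described here are 10 nuclear genes whose products set the shape of mitochondria: Mfn1, Mfn2 and Opa1 for fusion, Dnm1l, Fis1, Mff, Mief1 and Mief2 for fission, and Oma1 and Yme1l1 for the cleavage of the Opa1 protein. They were chosen by name, and each symbol matched 1 of the 29267 gene IDs in the tables. The RNA came from embryonic fibroblasts of ICR mice that were being reprogrammed, and 1 library was sequenced for each of 5 groups. At day 4 the groups were cells expressing CypD (cyclophilin D, the product of Ppif) and cells expressing a Flag control. At day 8 they were cells given the wasp-venom peptide mastoparan, the redox-cycling herbicide paraquat, or neither. The characteristics of all 3 day-8 samples also name CypD expression, which the design text does not. Doses, the reprogramming factors introduced and the number of embryos or cultures are not stated in the labels. No difference below has a replicate check, and none has a p-value.

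Mitochondria fuse and divide continually. Outer membranes are joined by the mitofusins and inner membranes by Opa1, a dynamin-like GTPase that also keeps cristae narrow. Division is carried out by the cytosolic GTPase Drp1, the product of Dnm1l, which is drawn to the outer membrane by the receptors Mff, Mief1 and Mief2, with Fis1 as a further outer-membrane protein. The inner-membrane proteases Oma1 and Yme1l1 cut long Opa1 into short forms, and Oma1 is known for being switched on when the membrane potential is lost. Fragmentation of the mitochondrial network is a known early step of reprogramming in mouse fibroblasts. Much of the control of this machinery acts on the proteins, which RNA levels do not show.

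Library totals ran from 2425950 to 3426650 counts. Levels are in CPM, counts for each 1000000 reads of a library scaled by TMM factors, and their 95% intervals cover counting error only. Ppif stood at 761 CPM in the CypD library and at 44.2 CPM in the Flag library, and between 29.2 and 34.2 CPM in the day-8 libraries, so the CypD label of day 8 has no counterpart in Ppif. Fibroblast markers were detected in all libraries, with a summed level of 6559 to 7079 CPM over 9 genes. Of 4 epithelial markers, all measured, the sum was 147 to 163 CPM at day 4 and 405 to 464 CPM at day 8. Leukocyte markers summed to 5.52 to 7.53 CPM at day 4 and 15.1 to 18.5 CPM at day 8. Among them Adgre1 had 0 counts in every library. Endothelial markers summed to between 48.5 and 60.7 CPM with Cdh5 at 0. Less RNA per cell and fewer cells of a type cannot be told apart in such bulk libraries.

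All 10 genes were measured in every library, with mean levels from 11.4 CPM (Mief2) to 120 CPM (Fis1). To compare genes with one another, the deposited TPM, which is per transcript length, was used. Fis1 was the most abundant, at 202 to 246 TPM, followed by Mff at 90.2 to 119 TPM. Mfn1 (32.5 to 54.5 TPM), Yme1l1 (29.1 to 37.8 TPM) and Dnm1l (27.4 to 36.4 TPM) came next, and their ranges over the libraries overlapped. Oma1 (9.85 to 19.2 TPM), Mfn2 (9.14 to 16.3 TPM) and Opa1 (8.56 to 17.6 TPM) also overlapped with one another. The 2 receptors Mief1 (7.41 to 9.63 TPM) and Mief2 (4.77 to 9.21 TPM) were the lowest, and their ranges reached into that of Opa1. Fis1 alone made up 56.1% to 64.8% of the summed TPM of the 5 fission genes. The 3 fusion genes made up 13.1% (mastoparan), 13.3% (paraquat), 13.8% (Flag), 16.9% (day-8 control) and 17.2% (CypD) of the summed TPM of fusion and fission genes. Of these 3, Mfn1 had the highest TPM in every library. The share depends on the unit. In expected counts, where long transcripts weigh more, it was 29.2% (mastoparan), 24.9% (paraquat), 30.9% (Flag), 29.3% (day-8 control) and 31.5% (CypD). Mastoparan and the day-8 control were then close. Flag lay above both, but the 95% counting intervals overlapped: 28.3% to 33.5% (Flag), 27.1% to 31.7% (day-8 control) and 26.8% to 31.7% (mastoparan). That of paraquat, 22.5% to 27.4%, lay below the one of Flag and reached into those of the day-8 control and mastoparan. The paraquat library had a trend with transcript length, described below, and its part in this share was not tested.

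**Figure D1:**
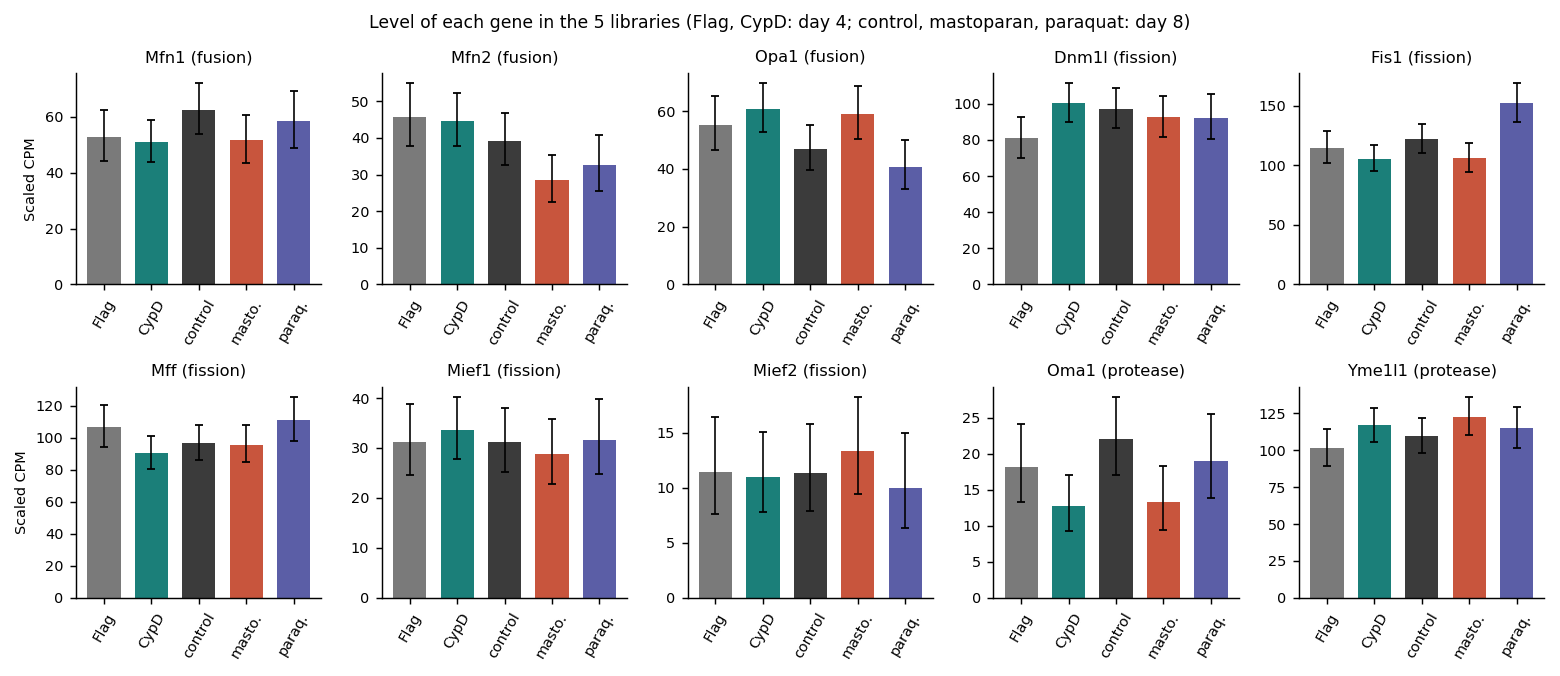
Scaled CPM of the 10 genes in each library, with bars for the level and lines for the exact Poisson 95% interval of its count. Between libraries the bars mostly lie within each other's intervals; the Mfn2 bars step down from day 4 to day 8, and the Oma1 bars are low in the CypD and mastoparan libraries.

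When the 5 levels of each gene were put in order, 40 pairs of neighbours resulted, and for 39 of them the 95% interval of the fold between them held 1. The exception was Fis1 in paraquat over the day-8 control. Neighbours in order are the closest levels by construction, and no share over all genes was computed. The count therefore does not show that these genes are stable. From its highest to its lowest library a gene differed by between 1.17-fold (Mief1) and 1.73-fold (Oma1). For Mfn1, Mief1 and Mief2 even the interval of that largest fold held 1. The 2 libraries of such a fold were picked by their values, which favours an interval without 1. No share over all genes was computed for it.

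Among the fusion genes, Mfn1 (chromosome 3, 32529465 to 32579239, plus strand; all positions are GENCODE M21 on GRCm38) had 52.9 CPM in Flag, 51.0 in CypD, 62.6 in the day-8 control, 51.6 in mastoparan and 58.5 in paraquat. Its level was highest in the day-8 control, and the day-4 and day-8 levels overlapped. Mfn2 (chromosome 4, 147873599 to 147904704, minus strand), the mitofusin that also tethers mitochondria to the endoplasmic reticulum, had 45.8 CPM in Flag, 44.6 in CypD, 39.2 in the day-8 control, 28.4 in mastoparan and 32.5 in paraquat. It was the only 1 of the 10 whose 3 day-8 levels all lay on one side of both day-4 levels, namely below them. Of all 13584 genes measured, 28.1% had this order and 28.5% the opposite one, so 1 member of 10 is no more than genes at large. Day, introduced genes and treatment differ together here and cannot be told apart. The part of the epithelial and leukocyte markers, both higher at day 8, was not tested. Flag over mastoparan, the extremes for Mfn2, was 1.61-fold (1.20 to 2.17), an interval that makes no allowance for picking the extremes.

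The count ratio of Mfn2 to Mfn1 within a library needs no scaling between libraries. It was 0.866 in Flag and 0.875 in CypD, and then 0.627 in the day-8 control, 0.551 in mastoparan and 0.556 in paraquat. The day-4 ratios were thus close together and above all 3 day-8 ratios, and the interval of the day-8 control, 0.495 to 0.791, overlapped that of Flag, 0.669 to 1.12. On deposited TPM the day-4 ratios, 0.467 and 0.400, were again above the day-8 ratios, which ran from 0.224 to 0.290. As it compares 2 genes, the count ratio can also carry a trend with transcript length. In paraquat against control, genes as long as Mfn2 had a median log2 ratio of -0.16 and genes as long as Mfn1 0.01. The part of such a trend in the ratio was not tested.

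Opa1 (chromosome 16, 29579334 to 29654884, plus strand) had 55.2 CPM in Flag, 60.8 in CypD, 47.0 in the day-8 control, 59.0 in mastoparan and 40.7 in paraquat. The day-4 and day-8 levels overlapped, with mastoparan beside the day-4 libraries and paraquat lowest.

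Among the fission genes, Dnm1l (chromosome 16, 16312230 to 16358959, minus strand) had 80.9 CPM in Flag, 100 in CypD, 97.3 in the day-8 control, 92.6 in mastoparan and 92.3 in paraquat. The 3 day-8 levels were close to one another and lay between the day-4 ones. Fis1 (chromosome 5, 136953275 to 136966234, plus strand) had 114 CPM in Flag, 106 in CypD, 122 in the day-8 control, 106 in mastoparan and 152 in paraquat, where it stood apart from the others. On deposited TPM it did not, with 246 in paraquat, 237 in the day-8 control and 237 in Flag. Mff (chromosome 1, 82724890 to 82752394, plus strand), a main receptor of Drp1, ran from 90.3 CPM in CypD to 111 in paraquat. Its values in Flag, the day-8 control and mastoparan were 107, 96.6 and 95.8 CPM.

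The receptors Mief1 (chromosome 15, 80234018 to 80253371, plus strand) and Mief2 (chromosome 11, 60728398 to 60732951, plus strand), also called MiD51 and MiD49, can hold Drp1 on the membrane in an inactive state as well as recruit it. Mief1 lay between 28.8 CPM (mastoparan) and 33.6 CPM (CypD). Mief2, with only 23 to 38 counts a library, lay between 9.96 CPM (paraquat) and 13.3 CPM (mastoparan). The count ratio of Mief2 to Mief1 ranged from 0.315 in paraquat to 0.463 in mastoparan, and all 5 intervals overlapped (0.188 to 0.509 and 0.307 to 0.689 for these extremes).

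Of the proteases, Oma1 (chromosome 4, 103313812 to 103371868, plus strand) had 46 counts or 18.2 CPM in Flag, 44 counts or 12.7 CPM in CypD, 68 counts or 22.1 CPM in the day-8 control, 38 counts or 13.3 CPM in mastoparan and 44 counts or 19.1 CPM in paraquat. It had the widest range of the 10 genes, with low values in CypD and mastoparan. Yme1l1 (chromosome 2, 23156369 to 23199260, plus strand), the ATP-dependent protease that cuts Opa1 without stress, had 101 CPM in Flag, 117 in CypD, 110 in the day-8 control, 123 in mastoparan and 115 in paraquat. Its highest values were in mastoparan and CypD, the libraries where Oma1 was lowest.

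The count ratio of Oma1 to Yme1l1, free of scaling between libraries, was 0.179 in Flag against 0.109 in CypD, which is 1.64 times lower in CypD (95% interval 1.03 to 2.62). At day 8 it was 0.201 in the control, 0.109 in mastoparan and 0.166 in paraquat. The mastoparan ratio was 1.85 times lower than the control (1.19 to 2.91). Paraquat was 1.21 times lower than the control with an interval that held 1 (0.788 to 1.88), and mastoparan 1.53 times lower than paraquat (0.938 to 2.50). On deposited TPM the ratio was 0.569 in paraquat and 0.567 in the control, so that small difference turned round. The ratio is not free of a trend with transcript length. In paraquat against control, genes as long as Oma1 had a median log2 ratio of 0.04 and genes as long as Yme1l1 -0.22. In mastoparan against paraquat these medians were -0.02 and 0.15. The part of this trend in the ratios was not tested. This pair had been picked with earlier values of Oma1 known, and these are 3 pairs in 4 comparisons with unadjusted intervals.

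**Figure D2:**
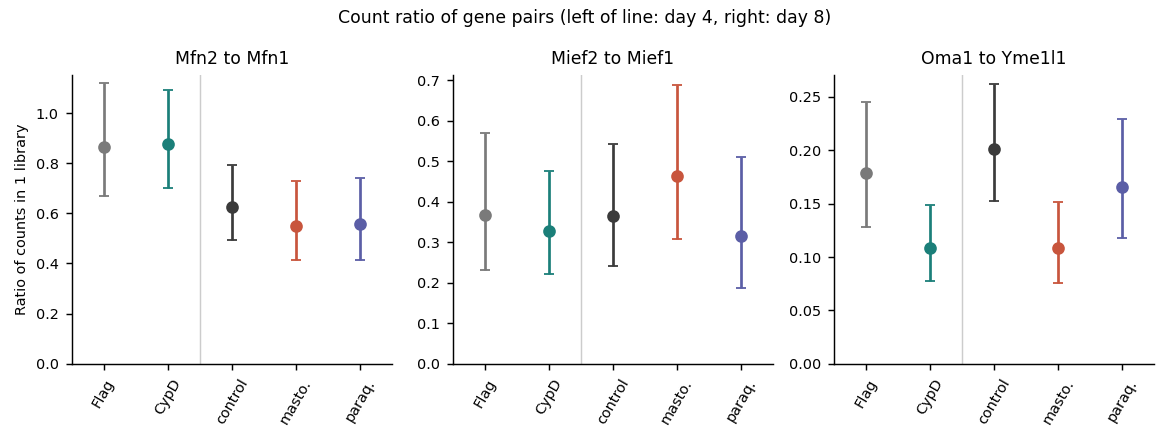
Count ratio within each library for the mitofusins, the Mief receptors and the Opa1 proteases, with points for the ratio and lines for its exact 95% counting interval. Mfn2 to Mfn1 is 0.866 and 0.875 at day 4 and at most 0.627 at day 8, with overlapping intervals. Oma1 to Yme1l1 is 0.109 in both CypD and mastoparan.

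For each comparison, 2 counts over the members are set beside all genes that averaged 1 CPM or more. One is the number past 1.5-fold in scaled CPM with 0.5 added, and the other the number whose 95% counting interval of the fold leaves out 1. Only the first also has a share among genes with a mean level within the members' range. Low counts give wide intervals, so the share of intervals over all genes is not matched for level.

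CypD against Flag at day 4 asks what CypD expression goes with. None of the 10 genes was past 1.5-fold, against 11.0% of 13244 genes and 2.89% of the 7788 genes with a mean level within the range of the 10 members. The intervals of Dnm1l and Mff left out 1, against 8.32% of all genes. Dnm1l was 1.24-fold higher in CypD (1.04 to 1.48) with 346 against 205 counts, and Mff 1.18 times lower (1.002 to 1.40) with 312 against 271. These 2 stood on opposite sides, although both act in fission. Oma1 was 1.42 times lower with an interval of 0.922 to 2.20, and Yme1l1 1.15-fold higher (0.984 to 1.35), so neither difference was detectable at this depth. The median log2 ratio of the 10 genes was -0.04 (-0.24 to 0.21 over genes), with 4 above and 6 below 0, beside -0.02 for all genes. The interval over genes, here and below, describes the spread of these chosen genes. It is not an error of the difference between libraries.

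**Figure D3:**
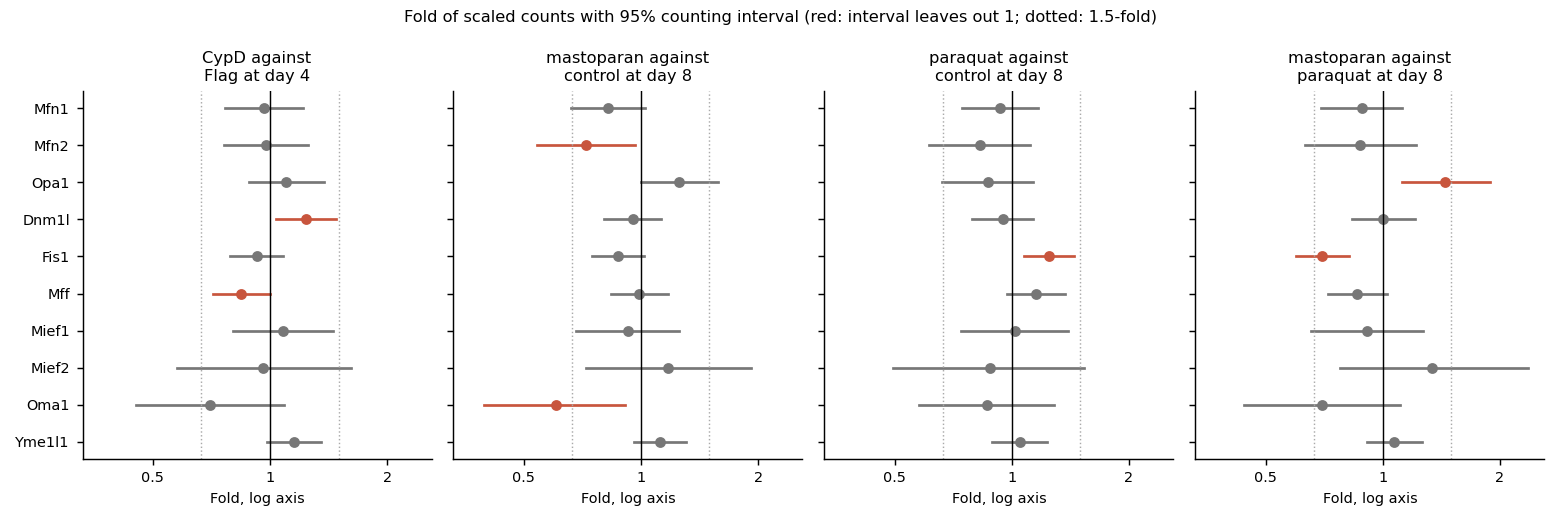
Fold of scaled counts for the 10 genes in the 4 comparisons, on a log axis, with points for the fold and lines for its exact 95% counting interval. Red marks the 7 intervals that leave out 1 among 40, and Oma1 in mastoparan against control is the only point past 1.5-fold.

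Mastoparan against control at day 8 held the one member past 1.5-fold. Oma1 was 1.65 times lower in mastoparan (1.10 to 2.53), a log2 ratio of -0.71. Past this fold on either side were 10.9% of 13651 genes, or 2.02% of the 7790 genes with a mean level within the range of the 10 members. Mfn2 was 1.38 times lower (1.03 to 1.85), with 81 against 121 counts. With Oma1 it makes 2 members of 10 whose interval left out 1, against 7.27% of all genes, a share not matched for level. Opa1, the substrate of Oma1, was 1.25-fold higher, and the lower bound of its interval, 0.998, lay just under 1 (upper bound 1.58). Mfn1 was 1.21 times lower (0.974 to 1.51) and Fis1 1.15 times lower (0.983 to 1.34). The mitofusins thus stood below the control and Opa1 above it, and 7 of the 10 genes were below 0. The median log2 ratio was -0.09 (-0.46 to 0.22 over genes), beside 0.01 for all genes.

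Because Oma1 and Mfn2 carried that comparison, the bases before their transcript starts are shown, from the RefSeq promoter table for GRCm38.p6 and outside GENCODE exons of the gene. Capitals mark matches to the GC box (GGGCGG, either strand) and the short cAMP response site (TGACG, either strand).
Oma1, chr4:103313596-103313811, plus strand: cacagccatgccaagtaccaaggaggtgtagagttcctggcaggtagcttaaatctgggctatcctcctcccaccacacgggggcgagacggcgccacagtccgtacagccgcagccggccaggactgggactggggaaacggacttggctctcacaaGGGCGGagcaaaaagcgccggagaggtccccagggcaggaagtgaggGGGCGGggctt
Mfn2, chr4:147904910-147905159, minus strand: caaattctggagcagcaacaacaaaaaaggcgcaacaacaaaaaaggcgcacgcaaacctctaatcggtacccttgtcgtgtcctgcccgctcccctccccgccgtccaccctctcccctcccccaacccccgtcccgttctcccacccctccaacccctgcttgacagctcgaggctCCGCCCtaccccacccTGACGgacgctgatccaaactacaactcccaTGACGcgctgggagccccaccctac
The Oma1 stretch holds 2 GC boxes, and the Mfn2 stretch holds 1 GC box and 2 short cAMP response sites. Over the 250 bases before the most upstream RefSeq start, all 10 members had a GC box, as did 32.7% of 32851 promoter windows of all kinds of genes, and 5 had the short cAMP response site (17.8% of windows). The full cAMP response element (TGACGTCA, which contains the short one), the response element of estrogen-related receptors (TCAAGGTCA) and the amino acid response element (TGATGNAA) had no match in the 10 windows and were in 1.55%, 0.387% and 3.45% of all windows. The CCAAT box (CCAAT) was in 7 members and 33.8% of windows, and the E-box (CACGTG) in Mief2 and 6.02%. These matches are letters in a sequence, not binding sites.

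Paraquat against control at day 8 shares its control library with the mastoparan comparison. No member was past 1.5-fold, although 18.7% of all genes were, and 9.51% of genes with a mean level within the members' range. Fis1 alone had an interval without 1, against 21.0% of all genes, and was 1.25-fold higher in paraquat (1.08 to 1.45) with 351 against 376 counts in libraries of unequal size. Fis1 has the shortest transcripts of the 10, and short transcripts were high in the paraquat library as a whole. The median log2 ratio of all genes of like transcript length was 0.36, and that of Fis1 was 0.32, which is -0.04 once the former is subtracted. On deposited TPM Fis1 was 1.04-fold higher. Genes with transcripts as long as those of Dnm1l, Mfn2, Mief1, Yme1l1 and Opa1 had medians between -0.22 and -0.16. All 3 fusion genes were below the control, with log2 ratios of -0.10 (Mfn1), -0.27 (Mfn2) and -0.21 (Opa1), and all 3 intervals held 1. The median of the 10 was -0.09 (-0.21 to 0.20 over genes), beside -0.03 for all genes.

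**Figure D4:**
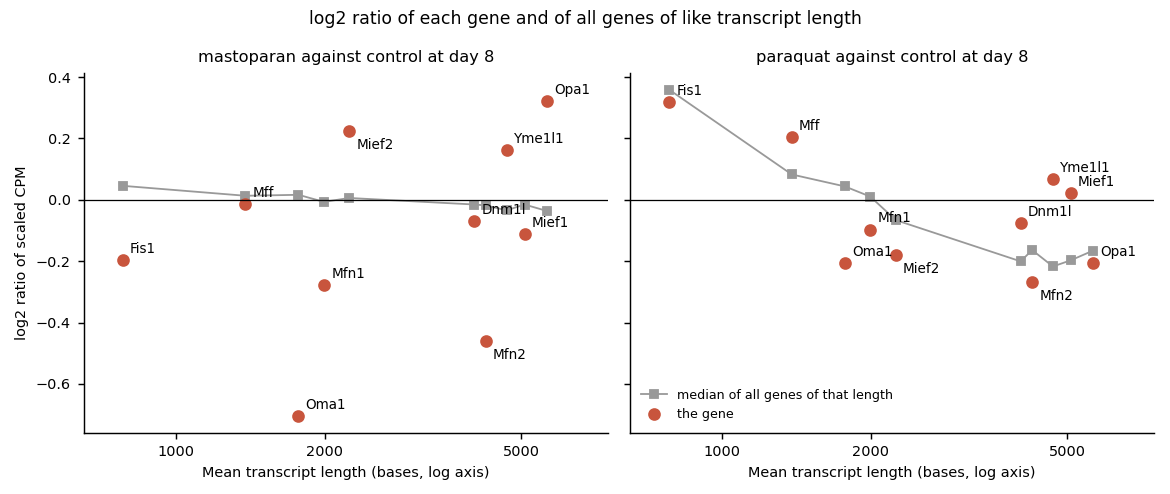
log2 ratio of scaled CPM for each of the 10 genes (red) and the median over all genes of like transcript length (grey squares), against mean transcript length in bases on a log axis. In paraquat the grey medians slope from 0.36 at the length of Fis1 to -0.22 at that of Yme1l1, and Fis1, at 0.32, lies close to them; in mastoparan they are nearly flat, and Oma1, at -0.71, lies far below.

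In mastoparan against paraquat, 2 of the 10 intervals left out 1, a share like the 19.2% of all genes, so this count says nothing particular about the members. Opa1 was 1.45-fold higher in mastoparan (1.12 to 1.88) with 168 against 94 counts. Fis1 was 1.43 times lower (1.22 to 1.67) with 303 against 351 counts, and its log2 ratio of -0.51 was -0.22 after the median of genes of like length was subtracted. For Opa1 the same step took 0.53 to 0.38. No member was past 1.5-fold, against 17.1% of all genes and 7.84% of genes with a mean level within the members' range. Oma1 was 1.43 times lower with an interval that held 1 (0.905 to 2.27). The median log2 ratio of the 10 was -0.16 (-0.50 to 0.40 over genes) with 6 below 0, beside 0.02 for all genes. On deposited TPM the members' median turned to 0.16 with 3 below 0, while that of all genes moved to 0.23, so the direction of the median depends on the unit.

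The deposited tables also give for each gene an average transcript length, which moves with the estimated mix of its transcripts. For Mfn2 (4241 bases) and Mief1 (5081 bases) it was the same in every library. For Mfn1 it was 2314 bases in Flag, 1968 in CypD, 1702 in the day-8 control, 2250 in mastoparan and 1734 in paraquat, so the day-8 control and paraquat were shortest. The reference lists 10 transcripts of Mfn1 between 246 and 4562 bases long. A shorter average raises the TPM, and on that unit Mfn1 was 1.68 times lower in mastoparan than in the control, against 1.21 times in counts. Oma1 had an average of 1915 bases in Flag, CypD and mastoparan, 1700 in the day-8 control and 1408 in paraquat. Its TPM in mastoparan was accordingly 1.94 times lower than in the control. Opa1, which is spliced into many forms, ran from 5027 bases (CypD) to 6230 bases (Flag), Mff from 1223 (mastoparan) to 1494 (CypD) and Mief2 from 1979 (day-8 control) to 2522 (CypD). At 23 to 312 counts a gene, no error of these averages was given, and their differences were not tested.

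**Figure D5:**
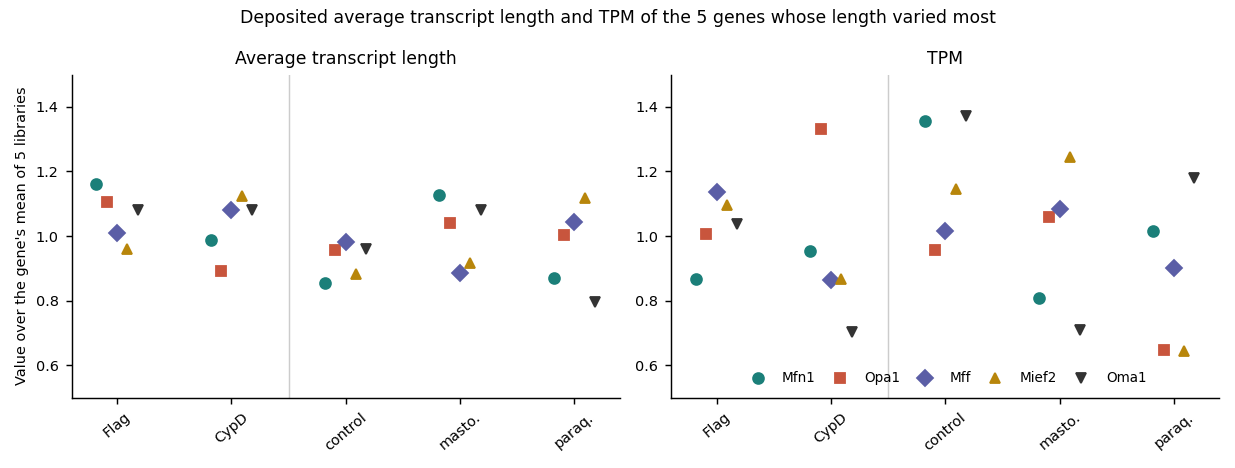
Deposited average transcript length (left) and TPM (right) of Mfn1, Opa1, Mff, Mief2 and Oma1 in each library, each divided by the mean of that gene over the 5 libraries. Mfn1 is shortest in the day-8 control, at 1702 bases, and there its TPM is highest, at 54.5.

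Other genes of the pathway were described from lists chosen with earlier results known. The MICOS complex shapes the necks of cristae, and 10 genes of MICOS and its partners were measured. None was past 1.5-fold in any of the 4 comparisons, where 11.0%, 10.9%, 18.7% and 17.1% of all genes were. Their median log2 ratio was 0.02 for CypD, 0.01 for mastoparan and 0.08 for paraquat against their controls. In the first 2 of these no interval left out 1, where 8.32% and 7.27% of all genes had such an interval. With so few genes, these counts do not set the list apart from genes at large. In paraquat 5 of the 10 intervals left out 1, 3 on the higher and 2 on the lower side. Of all genes 21.0% had such an interval, a share not matched for level. The small MICOS subunit gene Minos1 was 1.44-fold higher (1.26 to 1.65), the metaxin gene Mtx1 1.39-fold (1.15 to 1.69) and Apool 1.35-fold (1.02 to 1.79). Their transcripts are short, and after the median of genes of like length was subtracted their log2 ratios of 0.53, 0.48 and 0.43 became -0.0025, 0.02 and 0.21. On the lower side were Mtx2, the other metaxin gene, at 1.26 times lower (1.02 to 1.57) and the MICOS subunit gene Chchd3 at 1.22 times lower (1.04 to 1.43), both named after their values were seen. The same step took their log2 ratios from -0.33 to -0.58 and from -0.29 to -0.36. In mastoparan against paraquat the list median was -0.23, with 8 of the 10 genes below 0. There 1 interval without 1 lay on the higher side and 3 on the lower, against 19.2% of all genes. That share is not matched for level, and the part of transcript length was not tested.

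Of 10 genes for inner-membrane scaffolds and proteases, 1 was past 1.5-fold, in paraquat, where 18.7% of all genes were. This was Clpp, the matrix peptidase, at 1.53-fold (1.30 to 1.81). The prohibitins Phb2 and Phb, ring-forming scaffolds that protect long Opa1, were 1.30-fold (1.20 to 1.40) and 1.26-fold (1.14 to 1.39) higher there. These 3 were the intervals of the list that left out 1 in paraquat, all on the higher side, against 21.0% of all genes. The transcripts of all 3 are short too, and subtracting the median of genes of like length took the log2 ratio of Clpp from 0.61 to 0.40, of Phb2 from 0.38 to 0.17 and of Phb from 0.33 to 0.09. In CypD, Letm1, an inner-membrane ion exchange protein, was 1.23 times lower (1.02 to 1.47). For mastoparan no interval of this list left out 1, against 7.27% of all genes. Spg7, a subunit of an inner-membrane protease, was 1.17 times lower there (1.00 to 1.36, the lower bound just under 1 before rounding). The list medians were -0.05, -0.0035 and 0.10 for CypD, mastoparan and paraquat. In mastoparan against paraquat the median was -0.21, with 8 of the 10 genes below 0. There 3 intervals left out 1, all on the lower side, against 19.2% of all genes. The part of transcript length was not tested.

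Among 16 measured further fusion and fission factors, the 1 gene past 1.5-fold was Pld6, a mitochondrial phospholipase, named here after its values were seen. It passed in CypD, in paraquat and in mastoparan against paraquat, where 11.0%, 18.7% and 17.1% of all genes did. It had 3 counts in CypD against 5 in Flag, and at day 8 it had 7 in the control, 5 in mastoparan and 2 in paraquat, numbers too low to show a difference. In mastoparan the outer-membrane fusion factor Miga2 had 69 against 101 counts (1.35 times lower, 0.986 to 1.87) and the ubiquitin ligase gene Mul1 73 against 99 (1.25 times lower, 0.917 to 1.72). In paraquat 4 of the 16 intervals left out 1, 2 on each side, against 21.0% of all genes. Mtfr1, a fission regulator, was 1.30 times lower (1.004 to 1.69). The other 3, named after their values were seen, were Dnm2, a dynamin, at 1.17 times lower (1.01 to 1.36), Mtfr1l at 1.24-fold higher (1.03 to 1.47) and Fkbp8, an outer-membrane protein, at 1.15-fold higher (1.04 to 1.27). Subtracting the median of genes of like length took the log2 ratio of Dnm2 from -0.23 to -0.08 and of Mtfr1 from -0.37 to -0.30. For Fkbp8 it went from 0.20 to 0.12 and for Mtfr1l from 0.30 to 0.29. The list medians were -0.10, -0.0036 and -0.09 for CypD, mastoparan and paraquat. In mastoparan against paraquat the median was 0.04, and 1 interval left out 1, on the higher side, against 19.2% of all genes.

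Since Oma1 had the widest range of the 10, the genes with the most similar profile over the 5 libraries were looked up among 10483 protein-coding genes that averaged 5 CPM or more. Likeness was the root mean square difference between centred log2 levels. The nearest were Parp6 (0.0630), Slc6a9 (0.0861), Cadm3 (0.0923), D2hgdh (0.0953) and Dennd1a (0.0974). Parp6, for example, had 28.8 CPM in Flag, 18.0 in CypD, 32.4 in the day-8 control, 19.3 in mastoparan and 26.9 in paraquat. The nearest of the other 9 members was Mfn1 at 0.202, and the farthest was Opa1 at 0.485. Over 5 libraries this likeness is a description only.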

How the data were processed

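RNA of 5 samples was sequenced, after Trizol extraction and TruSeq library preparation per the labels' protocols. Bowtie2 2.2.5 and mm10 are named in the submitters' processing notes, while no source used here names the program that counted reads. The authors deposited FPKM, TPM and expected counts by gene, per the file headers, beside an average and an effective transcript length. The deposited expected counts were fractional for 16.8% to 19.0% of genes, zeros included and with no tolerance. The deposited TPM was used to compare genes, and the deposited FPKM was not used. The deposited lengths differ from effective lengths by 48.5 bases (median).

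Gene IDs were matched to GENCODE M21 (28756 of 29267 had a symbol). Expected counts were rounded and scaled by TMM (edgeR 4.0.16, R 4.3.3). Log2 ratios use a pseudocount of 0.5 CPM and genes that averaged 1 CPM or more on that day. Folds come from scaled counts without a pseudocount. Each has an exact 95% interval (Clopper-Pearson, from the share that 1 library has of both counts). Ratios between genes of 1 library have the same kind of interval, and their differences between libraries an exact conditional interval. Intervals of levels are exact Poisson intervals. All cover counting error only, since amplified reads are not independent molecules, and none is adjusted. Medians have order-statistic intervals over the 10 genes, which were chosen by name and are not replicates. A floor of 3 counts equals 0.869 to 1.30 CPM.

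Of the members' 49-base windows, 0.966% of Mfn1 (with 172 other genes) and 1.46% of Mff (with 1 other gene) also occur in other genes' transcripts, and none in the other 8 members. The code was tested on simulated data. All 10 members are named in every comparison, with Ppif as the check of the CypD label, and up to 3 genes of each further list with the largest absolute log2 ratio at 5 CPM or more, of which some are reported here. The members and lists were chosen with earlier results of these data known. The alternatives, most of them also used before on these data, are given at the end. The tools were pandas 2.3.3, scipy 1.17.1, numpy 2.4.6 and matplotlib 3.10.9 in Python 3.11.15. DESeq2 1.42.0 gave alternative size factors.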

Additional observations from a re-analysis of the deposited data

How the results depend on the processing

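No paired analysis was possible because each group has 1 library and the labels number no replicates, and for the same reason no replicate could be left out. Each comparison was repeated with 11 other settings, of which 2, the filters on low values, leave a member's own ratio as it is by construction. Of the 360 values of single members under the other 9 settings, 347 stayed within the counting interval of the reported fold. In all, 24 changed sign, 8 of them on deposited TPM. For 22 of these the interval of the reported fold held 1, and the other 2 were Fis1 in paraquat against control, which was -0.0421 with the length trend removed and -0.0668 with the length and GC trends removed. Oma1 and Mfn2 in mastoparan against control ran from -0.92 to -0.65 and from -0.50 to -0.43. On deposited TPM the median of all genes was -0.29 for paraquat against control and 0.23 between the treatments (mastoparan over paraquat), and with library totals alone it was -0.13 for paraquat against control. The members' median for paraquat against control was -0.30 on deposited TPM, close to that shift, and between the treatments it turned from -0.16 to 0.16. That of CypD against Flag turned from -0.04 to 0.0080 with the length trend removed and 0.03 with length and GC trends removed. On deposited TPM the number of members past 1.5-fold was 2 in mastoparan against control, 1 in paraquat against control and 3 between the treatments, where it was 1 with library totals alone. The other settings left these counts as reported. On deposited TPM 2 members, not 1, had all day-8 levels on one side of day 4. The cause of these moves was not tested.

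In expected counts the fusion share was 30.9% (Flag), 31.5% (CypD), 29.3% (day-8 control), 29.2% (mastoparan) and 24.9% (paraquat). On TPM in place of counts, in the same order, Mfn2 to Mfn1 was 0.467, 0.400, 0.247, 0.290 and 0.224, Mief2 to Mief1 was 0.876, 0.667, 0.951, 1.16 and 0.644, and Oma1 to Yme1l1 was 0.445, 0.272, 0.567, 0.262 and 0.569. Oma1 and Mief2, at 23 to 68 counts a library, have the widest intervals, and smaller differences in them were not detectable at this depth.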
